A study of Mus musculus with 3 samples.

Results

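Mmp9, Mmp12 and Timp1 were followed across the immune cells of the mouse intestinal muscularis before and after surgical injury. The 3 genes are 3 of the 14148 genes in the count tables. They were chosen from these data, by how their counts differed between cell classes and time points, so the levels below describe that pattern and were given no test. Mmp9 was far higher in neutrophil-like cells and in an unnamed cluster with Siglecf and Ptgs2 among its leading genes than in other cells at each time point, Mmp12 was concentrated in a small group of macrophages 72 h after injury, and Timp1 was high in monocytes and macrophages 24 h after injury and much lower in the naive and 72 h samples.

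Matrix metalloproteinases are secreted zinc enzymes that cut proteins of the extracellular matrix and also cytokines, chemokines and growth factors. They are made as inactive precursors, and a cysteine in the propeptide blocks the zinc until it is removed. Mmp9, gelatinase B, degrades denatured collagen and type IV collagen of basement membranes and is stored in neutrophil granules. Mmp12, the macrophage metalloelastase, degrades elastin. Timp1 is a small secreted protein that enters the active site of most MMPs and blocks it, and it binds the precursor of Mmp9.

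Cells carrying the leukocyte surface protein CD45 were sorted from the muscularis externa of the small intestine, the muscle coat that holds the myenteric plexus, of 12-week-old female wild-type C57BL/6J mice. The naive group had no operation. The other groups were taken 24 h and 72 h after intestinal manipulation, in which the gut is handled during surgery and the muscle coat becomes inflamed. Each time point was 1 droplet library of cells pooled from several mice, so time and library cannot be told apart.

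The sequences that carry the activity of these proteins are short and shared within each family, and they are shown because they define enzyme and inhibitor. Mmp9 (ENSMUSG00000017737) spans chr2:164940780-164955850 on the plus strand of GRCm38, has 13 exons and encodes 730 codons. Mmp12 (ENSMUSG00000049723) spans chr9:7344381-7369499, plus strand, with 10 exons and 473 codons. The zinc-binding stretch of Mmp9 is coding sequence of exon 8 at chr2:164951133-164951165, and that of Mmp12 is coding sequence of exon 5 at chr9:7352914-7352946. The capitals mark the 3 histidine codons that hold the catalytic zinc.
Mmp9 zinc-binding stretch: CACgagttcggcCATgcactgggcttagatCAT
Mmp12 zinc-binding stretch: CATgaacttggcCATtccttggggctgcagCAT
The stretches had 21 of 33 bases in common, and 8 of 11 codons encoded the same residue. Timp1 (ENSMUSG00000001131) spans chrX:20870166-20874735 on the plus strand and encodes 205 codons in 6 exons. It lies inside the synapsin gene Syn1, chrX:20860511-20921004, which is read from the opposite strand. The start of the mature inhibitor, whose first cysteine coordinates the zinc of the blocked enzyme, is coding sequence of exon 2 at chrX:20871111-20871149. The same stretch of Timp2, the other TIMP gene detected, is at chr11:118354974-118355012 on the minus strand, in exon 1 of 5. The capitals mark 3 cysteine codons.
Timp1 mature start: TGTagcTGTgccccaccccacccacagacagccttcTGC
Timp2 mature start: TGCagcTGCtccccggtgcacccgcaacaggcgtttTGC
These stretches had 25 of 39 bases in common, and 10 of 13 codons encoded the same residue. The coding stretches were read from the GENCODE vM21 annotation of GRCm38.

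The libraries held 652 cells and 1865221 UMIs (naive), 2211 cells and 10542346 UMIs (24 h), and 1239 cells and 5246731 UMIs (72 h), where a UMI counts 1 captured mRNA molecule. The median UMIs per cell were 2134.5, 4669 and 3295. Each pair of libraries shared 1 cell barcode. Cells were grouped without the 3 genes among those used, and 5 classes were called from marker genes. Neutrophil-like cells numbered 12, 412 and 111 in the naive, 24 h and 72 h libraries, monocyte/Mφ-like cells 140, 1545 and 576, DC-like cells 20, 120 and 134, T cell/ILC-like cells 188, 71 and 136, and B cell-like cells 277, 38 and 78. A cluster of 15, 25 and 204 cells passed 7 of 9 neutrophil markers, but Siglecf, the eosinophil surface lectin, was among its leading genes, so it was left unnamed and is called the Siglecf/Ptgs2 cluster. The study calls a cluster marked by Siglecf eosinophils. Here 1 of the eosinophil markers measured, Siglecf itself, passed, and Ccr3, Prg2 and Alox15 had 0 UMIs in this cluster at 24 h and 72 h. Ptprc, which encodes CD45, was found in each class. The 17 measured genes of fibroblasts, muscle, glia, endothelium and epithelium together made 26.3 to 103 CPM (counts per 1000000 counts) per class and library in the classes of 20 cells or more, with 2 to 16 of the 17 at 0, and their part in the results was not tested.

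Levels are in CPM, the gene's UMIs per 1000000 UMIs of the cells in a class, with exact 95% Poisson intervals that cover counting error only. The libraries counted the 3' ends of transcripts, 1 UMI per molecule whatever its length, so levels of different genes in CPM are set side by side without a length correction. Over all cells, Mmp9 had 76, 727 and 549 UMIs in the naive, 24 h and 72 h libraries. Mmp12 had 14, 60 and 179 UMIs. Timp1 had 7, 767 and 96 UMIs. In CPM of the whole library, Mmp9 was at 40.7, 69.0 and 105, Mmp12 at 7.51, 5.69 and 34.1, and Timp1 at 3.75, 72.8 and 18.3. The inhibitor was the most frequent of the 3 mRNAs at 24 h, though its interval overlapped that of Mmp9, and Mmp9 was the most frequent in the naive and 72 h libraries.

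**Figure D1:**
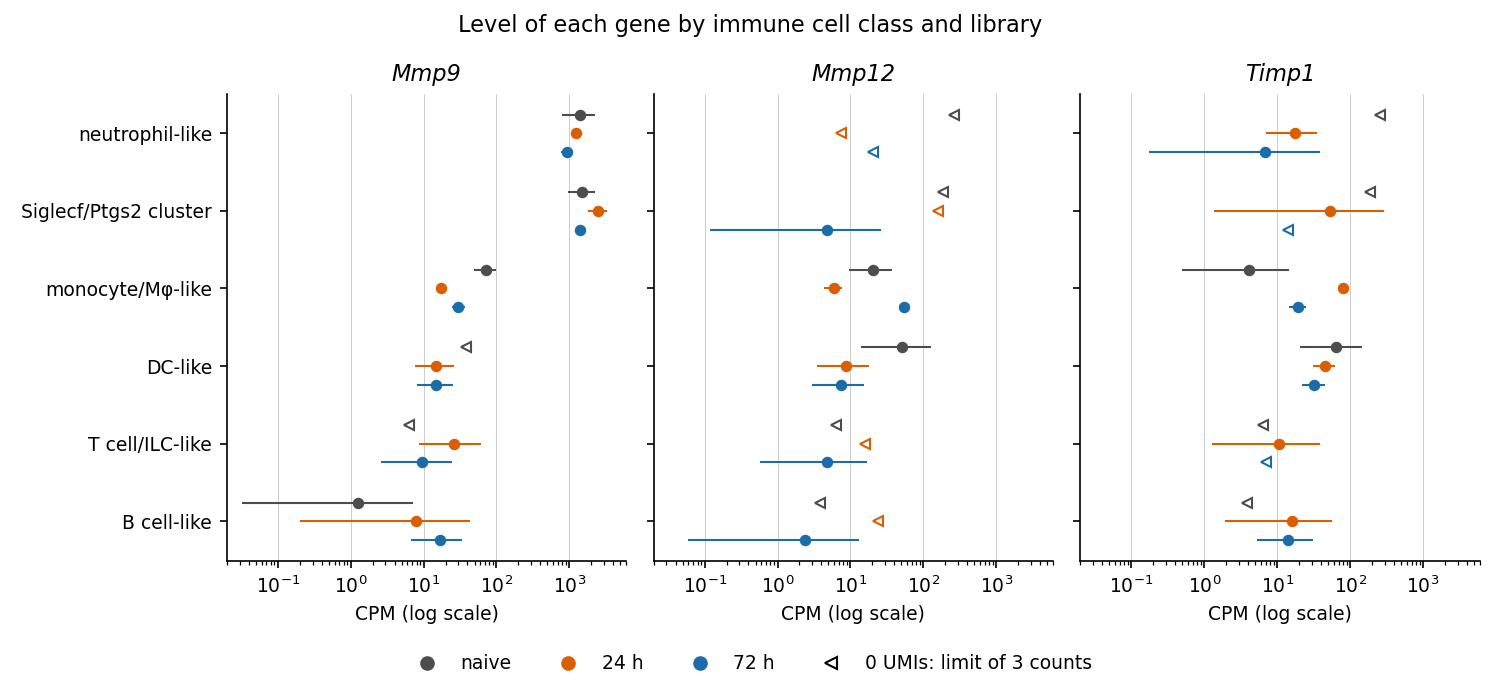
CPM of each gene on a log scale (x axis) in each cell class (y axis), with 1 point per library coloured by time point. Bars are exact 95% Poisson intervals of 1 pooled library, and open triangles mark 0 UMIs, drawn at the level of 3 counts. Mmp9 stood at 916 CPM or more in the neutrophil-like cells and the Siglecf/Ptgs2 cluster and at 70.8 CPM or less elsewhere, and Timp1 at 24 h was at 79.9 CPM in monocyte/Mφ-like cells.

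Mmp9 was the most abundant of the 3 genes in neutrophil-like cells. Neutrophil-like cells had 16 UMIs in the naive library, 505 at 24 h and 134 at 72 h, which is 1390 CPM (795 to 2258), 1247 CPM (1141 to 1361) and 916 CPM (767 to 1085). The naive value rests on 12 cells, and its interval covers the 24 h and 72 h values. The 72 h level was 0.734 times the 24 h level (0.602 to 0.890), but with the Siglecf/Ptgs2 cluster described next counted in the class it was 0.927 times (0.816 to 1.054), an interval that covers 1. At 24 h, 242 of 412 neutrophil-like cells (58.7%, exact binomial interval 53.8 to 63.5) had at least 1 Mmp9 UMI, and at 72 h 65 of 111 did (58.6%, 48.8 to 67.8). Per cell, UMIs were spread widely and not held by a few cells, with at most 7 in a cell at 24 h and 10 at 72 h.

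The Siglecf/Ptgs2 cluster carried still more Mmp9 per UMI. Its 24, 47 and 297 UMIs gave 1488 CPM (953 to 2214), 2486 CPM (1827 to 3306) and 1411 CPM (1255 to 1581). At 24 h this was 1.99 times the level of the neutrophil-like cells (1.45 to 2.69), and at 72 h 1.54 times (1.25 to 1.90). These cells were small, with a median of 783 UMIs at 24 h and 951.5 at 72 h, against 887 and 1262 in neutrophil-like cells. An Mmp9 UMI was found in 20 of 25 cells at 24 h (80%, 59.3 to 93.2) and in 140 of 204 at 72 h (68.6%, 61.8 to 74.9). Both groups were high in Mmp9 in each library. The level in the Siglecf/Ptgs2 cluster at 72 h was 0.567 times that at 24 h (0.416 to 0.789).

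The same cells differed in other granule and surface genes. The collagenase Mmp8, another neutrophil granule MMP, was at 74.1 and 171 CPM in neutrophil-like cells at 24 h and 72 h. It had 0 UMIs in the Siglecf/Ptgs2 cluster at both times, which allows up to 159 CPM at 24 h and 14.2 CPM at 72 h. The 24 h limit is above the neutrophil-like level, so a difference in Mmp8 was not detectable then. Lcn2, the lipocalin that binds Mmp9 in granules, was at 662 and 636 CPM in neutrophil-like cells against 52.9 CPM (1 UMI) and 33.2 CPM (7 UMIs). Retnlg, a neutrophil marker, was at 2890 and 3533 CPM against 0 and 28.5 CPM. Siglecf itself was at 81.5 and 68.3 CPM in neutrophil-like cells and at 264 and 389 CPM in the cluster named for it. The inflammatory cytokine Il1b was high in both groups, at 11467 and 16245 CPM in neutrophil-like cells and 12641 and 12549 CPM in the Siglecf/Ptgs2 cluster. Within the neutrophil-like class, the smaller cluster, led by Acod1, Il1f9 and Hcar2, had 606 CPM of Mmp9 at 24 h and 278 CPM at 72 h, against 1380 and 1048 CPM in the larger one. The larger cluster was 2.28 times higher at 24 h (1.66 to 3.20) and 3.77 times at 72 h (1.78 to 9.56).

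The share of Mmp9 UMIs held by each of these groups differed between the libraries. Neutrophil-like cells held 21.1% of the library's Mmp9 UMIs in naive muscularis, 69.5% at 24 h (66.0 to 72.8) and 24.4% at 72 h. The Siglecf/Ptgs2 cluster held 31.6%, 6.46% and 54.1% (49.8 to 58.3). Over the other ways of processing tried, the neutrophil-like share at 24 h ranged from 54.9% to 85.8%. The Siglecf/Ptgs2 share at 72 h ranged from 52.1% to 68.75%. For scale, neutrophil-like cells made 0.617%, 3.84% and 2.79% of all UMIs and the Siglecf/Ptgs2 cluster 0.865%, 0.179% and 4.01%. In each group the libraries stood in the same order for both shares, but not in proportion. From naive to 72 h the neutrophil-like share of all UMIs went from 0.617% to 2.79%, and its share of Mmp9 UMIs from 21.1% to 24.4%. The level lay between 916 and 2486 CPM in both groups, with the differences between times given above. What set the shares was not tested.

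**Figure D2:**
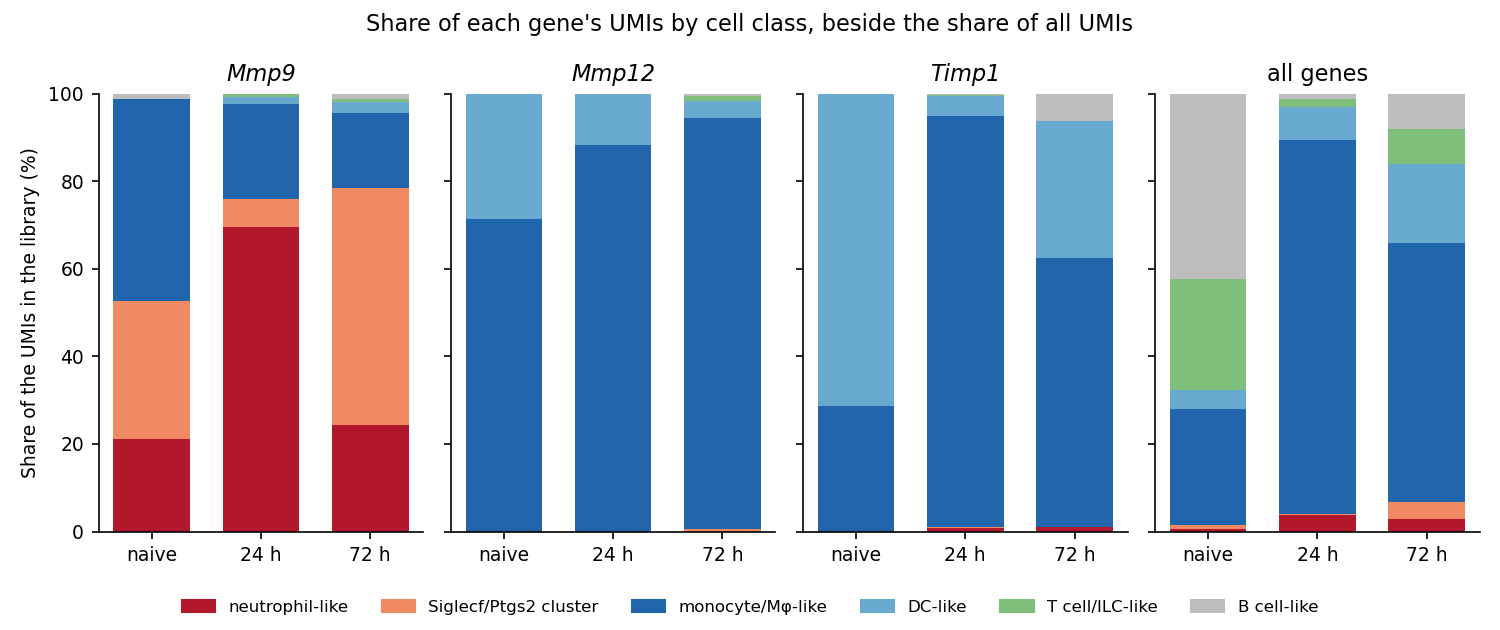
Percent of each gene's UMIs in a library (y axis) that came from each cell class, for the naive, 24 h and 72 h libraries, beside the same split of all UMIs. Mmp9 UMIs came mostly from neutrophil-like cells at 24 h (69.5%) and from the Siglecf/Ptgs2 cluster at 72 h (54.1%). At 24 h, 93.7% of Timp1 UMIs came from monocyte/Mφ-like cells, which held 85.4% of all UMIs.

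In the monocyte/Mφ-like class Mmp9 was far lower. Its 35, 157 and 93 UMIs gave 70.8 CPM (49.3 to 98.5), 17.4 CPM (14.8 to 20.4) and 29.95 CPM (24.2 to 36.7). Neutrophil-like cells exceeded this class 71.5-fold at 24 h (59.7 to 86.1) and 30.6-fold at 72 h (23.3 to 40.3). The 24 h level of the monocyte/Mφ-like class was 0.246 times the naive level (0.170 to 0.366), with a range of 0.0566 to 0.304 over the other ways of processing tried, and the 72 h level was 1.72 times the 24 h level (1.31 to 2.23). Different subclusters held most of the class in each library: 70 of the 140 naive cells were in a subcluster led by Lilra5 and Cd81, the Fabp5+, Ly6c+ and Ltc4s/Klk8 subclusters held 405, 296 and 282 cells at 24 h, and the Cd206+ and Timp2+ subclusters held 253 and 129 cells at 72 h. Cells with an Mmp9 UMI made 9.29%, 6.73% and 10.2% of the class. B cell-like cells, which should lack the gene, had a UMI in 0.361%, 2.63% and 5.13%, at 1.27, 7.88 and 16.6 CPM, with B cell-like counts of 1, 1 and 7 UMIs. The median UMIs per cell of the monocyte/Mφ-like class were 3310, 5927 and 5321. The ratio of the monocyte/Mφ-like to the B cell-like level was 55.9 in naive muscularis (9.40 to 2270), but its interval covered 1 at 24 h (2.21, 0.391 to 87.9) and at 72 h (1.81, 0.844 to 4.62). With all cells counted, the Mmp9 level of the monocyte/Mφ-like class at 24 h and 72 h was therefore not distinguishable from that in B cell-like cells. At 72 h, 1 B cell-like cell held 3 of the 7 UMIs. Without the top cell of each class, the 72 h levels were 28.4 CPM in monocyte/Mφ-like cells and 9.70 CPM in B cell-like cells. The 72 h comparison therefore rests in part on that B cell-like cell. DC-like cells at 72 h were at 0.498 times the monocyte/Mφ-like level (0.262 to 0.878).

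S100a8 and S100a9, the most abundant neutrophil mRNAs, were set beside Mmp9 in each class, a comparison chosen after the data were seen. Monocytes also make them, at far lower levels here. S100a8 and S100a9 were at 1385 and 321 CPM in the Ly6c+ monocyte-like cells at 24 h, where neutrophil-like cells were at 37098 and 31037 CPM. In the neutrophil-like cells of the 24 h library there were 18.3 Mmp9 UMIs per 1000 UMIs of S100a8 and S100a9 (16.7 to 19.97). In the monocyte/Mφ-like cells of that library there were 17.98 (15.3 to 21.0). The ratio was 129 in the Siglecf/Ptgs2 cluster (95.1 to 172), 42.1 in DC-like cells (21.8 to 73.5) and 75.8 in T cell/ILC-like cells (24.6 to 177). In B cell-like cells it was 27.0 (0.684 to 151), from 1 Mmp9 UMI, and the interval covered the neutrophil-like value. At 72 h the ratio was 9.76 in neutrophil-like cells (8.18 to 11.6), 41.8 in the Siglecf/Ptgs2 cluster (37.2 to 46.9) and 41.1 in monocyte/Mφ-like cells (33.2 to 50.3). It was then 26.2 in DC-like cells (14.3 to 44.0), 21.4 in T cell/ILC-like cells (5.83 to 54.8) and 46.1 in B cell-like cells (18.5 to 94.9). A UMI of S100a8 or S100a9 was found in 4.33%, 52.6% and 73.1% of B cell-like cells in the naive, 24 h and 72 h libraries. The naive monocyte/Mφ-like cells differed, with 35 Mmp9 UMIs beside only 13 S100a8 and S100a9 UMIs, against 16.2 per 1000 in the naive neutrophil-like cells. Of the 13 naive monocyte/Mφ-like cells with Mmp9, 2 carried S100a8 or S100a9. The part of free RNA in the Mmp9 counts of these cells was not tested.

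The naive Mmp9 UMIs of the class lay almost wholly in 2 subclusters. The Lilra5/Cd81 subcluster passed all 5 markers of a Cx3cr1+ subset, Cx3cr1 among them, but was not given that name because the B cell genes Igkc and Jchain led it. It held 25 of the 35 UMIs in 8 of 70 cells, at 115 CPM (74.6 to 170). Without the cell with the most, which had 8 UMIs, its level was 79.1 CPM. The Cd206+ subcluster, rich in Mrc1, Selenop and Igf1, held 9 UMIs in 4 of 30 cells, at 87.0 CPM (39.8 to 165), and at 39.1 CPM without 1 cell that had 5 of them. At 72 h, when 253 Cd206+ cells were captured, their level was 36.8 CPM (27.2 to 48.6) in 30 cells, so a difference between these times rests on that cell. Mmp13, an interstitial collagenase, was also highest before injury, with 72.9 CPM in the naive monocyte/Mφ-like class and 1.44 and 4.51 CPM at 24 h and 72 h. In the naive Lilra5/Cd81 subcluster it was at 115 CPM from 25 UMIs.

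Elsewhere Mmp9 was at or near the limit of detection. DC-like cells had 0, 12 and 14 UMIs, which is up to 37.9 CPM in the naive library and 14.97 and 14.92 CPM after injury. T cell/ILC-like cells had 0, 5 and 4 UMIs, which is up to 6.31 CPM, 26.5 CPM and 9.43 CPM. In order of level at 72 h, the Siglecf/Ptgs2 cluster led, neutrophil-like cells came next and the monocyte/Mφ-like class followed. With all cells counted, the intervals of the monocyte/Mφ-like class (24.2 to 36.7) and of B cell-like cells at 72 h overlapped. Counted in this way, these neighbours in the order did not differ beyond counting error.

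Mmp12 was a rare mRNA of monocytes and macrophages. The monocyte/Mφ-like class had 10, 53 and 168 UMIs, which is 20.2 CPM (9.71 to 37.2), 5.89 CPM (4.41 to 7.70) and 54.1 CPM (46.2 to 62.9). The level at 72 h was 9.19 times that at 24 h (6.71 to 12.8). The naive value came from 2 of 140 cells, and 8 of the 10 UMIs were in 1 of them. The 24 h level was 0.291 times the naive level (0.146 to 0.641), but without the top cell in each library the ratio was 1.204 (0.314 to 10.3), so no direction is given between naive and 24 h. The class held 71.4%, 88.3% and 93.9% of the Mmp12 UMIs, beside 26.5%, 85.4% and 59.2% of all UMIs.

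Neutrophil-like cells had 0 Mmp12 UMIs in each library. At 24 h this allowed up to 7.41 CPM, a limit above the 5.89 CPM of the monocyte/Mφ-like class, so a difference was not detectable at that depth. At 72 h the limit was 20.5 CPM, and the monocyte/Mφ-like level was at least 2.64-fold higher than that limit, with an exact lower bound of 2.12 for the ratio. In DC-like cells there were 4, 7 and 7 UMIs, at 50.5, 8.73 and 7.46 CPM, and the naive 4 UMIs came from 1 of 20 cells. At 24 h the DC-like level was 1.48 times that of the monocyte/Mφ-like class (0.569 to 3.27), which did not differ beyond counting error. The Siglecf/Ptgs2 cluster had 0, 0 and 1 UMI, T cell/ILC-like cells 0, 0 and 2, and B cell-like cells 0, 0 and 1.

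The rise of Mmp12 at 72 h lay in a single small group of macrophages. This subcluster, whose leading genes included the neutrophil chemoattractant Cxcl3 and the cystine transporter Slc7a11, held 0, 45 and 23 cells. Its 23 cells at 72 h were 1.86% of the cells of the library and held 144 UMIs, 80.4% of the Mmp12 counted there. The level was 1763 CPM (1487 to 2075), against 7.94 CPM in the other monocyte/Mφ-like cells of the library, a ratio of 222 (143 to 358). Mmp12 was found in 11 of the 23 cells. The 5 cells with the most had 47, 22, 20, 17 and 10 UMIs, and without the first the level was 1349 CPM. Mmp12 and the listed genes were not used to form the groups, but the subcluster was noticed for its Mmp12, so the contrast is a description.

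At 24 h the same subcluster, then 45 cells, had 9 Mmp12 UMIs in 4 cells, at 43.6 CPM (19.9 to 82.8). This was 8.71 times the rest of the class (3.74 to 18.1), and the 72 h level was 40.4 times higher still (20.7 to 90.2). Some other leading genes of the subcluster were at like levels at both times and others were not. Cxcl3 was at 596 and 600 CPM at 24 h and 72 h, Slc7a11 at 373 and 343 CPM, and Il1rn, the interleukin-1 receptor antagonist, at 775 and 783 CPM. Cxcl14 was at 116 and 282 CPM, and Clec4e at 906 and 551 CPM. Arg1 and Srgn were not among the 10 leading genes. Arg1, the arginase that uses arginine without making nitric oxide, was at 1942 CPM at 24 h and 563 CPM at 72 h, and Srgn, the granule proteoglycan serglycin, at 3507 and 1420 CPM. Of the 5 markers of an Arg1+ subset, Srgn, Cxcl3 and Il1rn passed and Arg1 itself did not. The larger subcluster led by Ltc4s and Klk8 had as much of it at 24 h (2064 CPM), and the name Arg1+ was not given to the Cxcl3/Slc7a11 cells.

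In the other subclusters at 24 h, Mmp12 was low. The Fabp5+ cells, with Spp1 and Gpnmb, had 25 UMIs in 10 of 405 cells, at 8.50 CPM (5.50 to 12.6). The H2-DMb1/Plbd1 subcluster was at 7.85 CPM (4.18 to 13.4), and the Ly6c+ monocyte-like cells at 1.99 CPM (0.542 to 5.09). The Ltc4s/Klk8 subcluster had 0 UMIs in 282 cells. At 72 h the Cd206+ cells had 12 UMIs in 8 of 253 cells, at 9.004 CPM (4.65 to 15.7), and the Timp2+ cells had 2 UMIs in 129 cells.

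**Figure D3:**
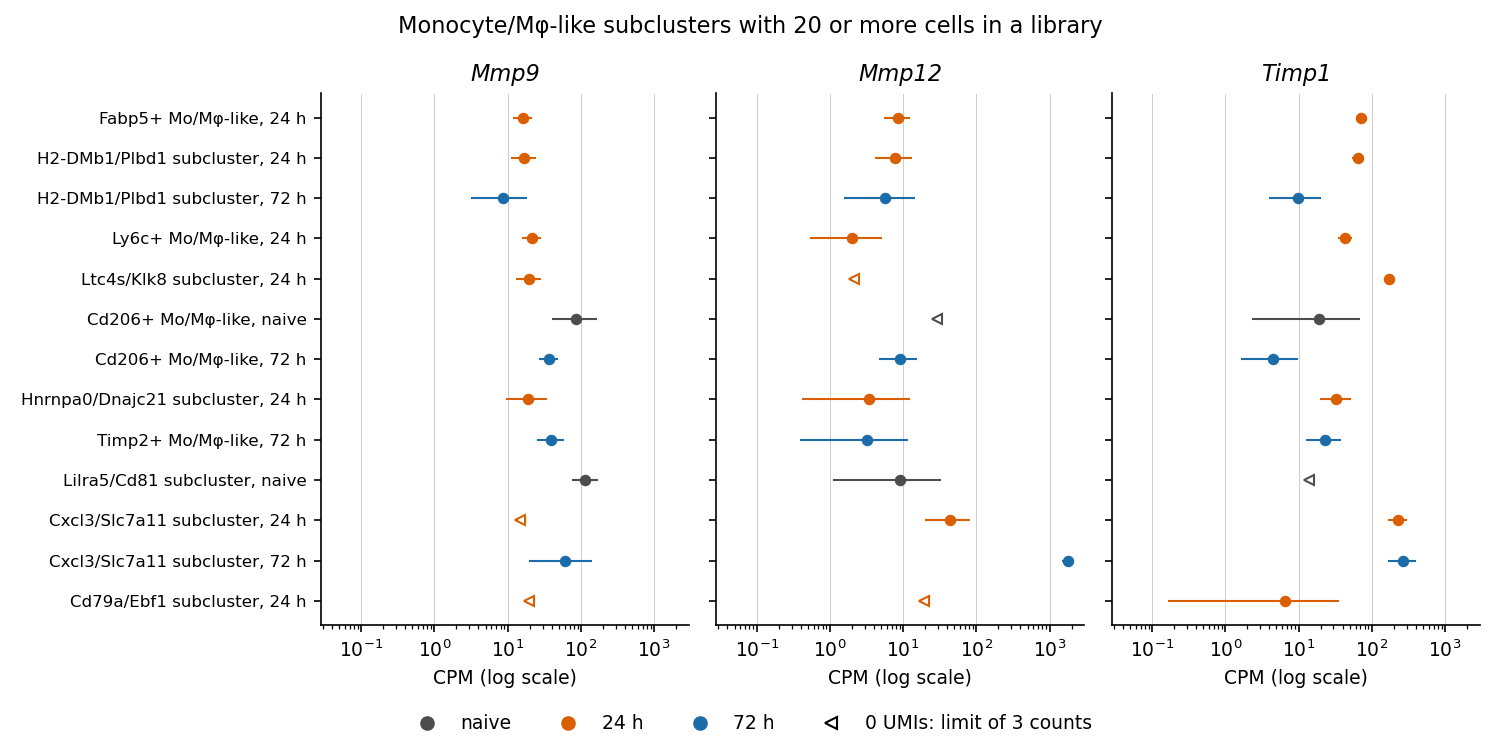
CPM of each gene on a log scale (x axis) in the monocyte/Mφ-like subclusters with at least 20 cells in a library (y axis), coloured by time point. Bars are exact 95% Poisson intervals and open triangles mark 0 UMIs at the level of 3 counts. The Cxcl3/Slc7a11 subcluster at 72 h stood alone for Mmp12, at 1763 CPM, and had the highest Timp1 levels at both times, 228 and 269 CPM.

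Among the classes, Timp1, the inhibitor, was at its highest level in the monocyte/Mφ-like cells of the 24 h library. The monocyte/Mφ-like class had 2 UMIs in naive muscularis, 719 at 24 h and 59 at 72 h. In CPM this is 4.05 (0.490 to 14.6), 79.9 (74.1 to 85.9) and 19.0 (14.5 to 24.5), and the intervals do not overlap except that of the naive value at its upper end with that of 72 h. The 24 h level was 19.7 times the naive level (5.44 to 163), a ratio that rests on 2 naive UMIs. The 72 h level was 0.238 times the 24 h level (0.179 to 0.310) and 4.69 times the naive level (1.24 to 39.7). The class held 93.7% of the Timp1 UMIs at 24 h (91.8 to 95.4), beside 85.4% of all UMIs, and 61.5% at 72 h, beside 59.2%.

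More cells carried Timp1 at 24 h. It was found in 2 of 140 monocyte/Mφ-like cells before injury (1.43%, 0.173 to 5.07), 340 of 1545 at 24 h (22.0%, 19.96 to 24.2) and 28 of 576 at 72 h (4.86%, 3.25 to 6.95). With each cell thinned to 500 UMIs, the shares were 0.251%, 3.54% and 0.987%, in the same order. B cell-like cells, read as background with the limits given above for 72 h, had a Timp1 UMI in 0 of 277, 1 of 38 and 2 of 78 cells. The 24 h monocyte/Mφ-like level was 5.07 times that of B cell-like cells (1.40 to 41.9), while at 72 h the ratio was 1.34 (0.580 to 3.79) and did not differ beyond counting error. The B cell-like counts were 2 UMIs in 1 cell at 24 h and 6 UMIs at 72 h, 5 of them in 1 cell. Without the top cell of each class, the 72 h levels were 15.5 CPM in monocyte/Mφ-like cells and 2.45 CPM in B cell-like cells. The 72 h comparison therefore rests on that B cell-like cell. The 719 UMIs were spread over many cells: 65 cells held the upper part that makes up 50% of them, and without the top cell, which had 40 UMIs, the level was 75.5 CPM.

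Among subclusters at 24 h, the Cxcl3/Slc7a11 cells and the Ltc4s/Klk8 cells were highest. The former had 47 UMIs in 13 of 45 cells, at 228 CPM (167 to 303). The latter had 245 UMIs in 109 of 282 cells, at 173 CPM (152 to 196), which was 2.76 times the rest of the class (2.36 to 3.23). Fabp5+ cells were at 71.4 CPM (62.1 to 81.8), the H2-DMb1/Plbd1 subcluster at 65.2 CPM (53.5 to 78.7) and Ly6c+ monocyte-like cells at 43.8 CPM (35.1 to 53.9). Without 1 cell of 40 UMIs the H2-DMb1/Plbd1 level was 41.3 CPM, within the range of the Ly6c+ cells. Timp1 was found in each of these subclusters at 24 h. A subcluster of 11, 22 and 17 cells led by Cd79a and Ebf1 passed 8 B cell or T cell markers, and at 24 h it had 1 Timp1 UMI and none of Mmp9 or Mmp12. In the naive library the 70 Lilra5/Cd81 cells had 0 UMIs and the 30 Cd206+ cells had 2.

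At 72 h the subclusters differed more. The Cxcl3/Slc7a11 cells had 22 UMIs in 6 of 23 cells, at 269 CPM (169 to 408), which is 1.18 times the 24 h level (0.679 to 2.002). In 1 of these cells there were 11 UMIs, and without the top cell in each library the levels were 171 CPM at 24 h and 149.7 CPM at 72 h. The H2-DMb1/Plbd1 subcluster, also present at both times, was at 9.94 CPM, 0.152 times its 24 h level (0.0598 to 0.325). The Timp2+ and Cd206+ cells, scarce at 24 h, were at 22.8 CPM (12.5 to 38.2) and 4.502 CPM (1.65 to 9.80). At 72 h the Cxcl3/Slc7a11 cells were 22.0 times the rest of the class (12.4 to 38.3).

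In DC-like cells Timp1 was detected at each time and its intervals overlapped. It had 5, 36 and 30 UMIs, at 63.1, 44.9 (31.4 to 62.2) and 32.0 CPM (21.6 to 45.6), and the naive 5 UMIs came from 1 of 20 cells. At 24 h, 22 of 120 DC-like cells had a Timp1 UMI (18.3%, 11.9 to 26.4), against 22.0% of monocyte/Mφ-like cells. The 72 h level was 0.712 times the 24 h level (0.424 to 1.19). DC-like cells were below the monocyte/Mφ-like class at 24 h, at 0.562 times its level (0.391 to 0.786), and above it at 72 h, at 1.68 times (1.046 to 2.65). Neutrophil-like cells had 0, 7 and 1 UMIs, and at 24 h the monocyte/Mφ-like level was 4.62 times theirs (2.23 to 11.5). T cell/ILC-like cells had 0, 2 and 0 UMIs.

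Syn1, the neuronal gene on the other strand around Timp1, had 0, 44 and 15 UMIs in the 3 libraries, of which 42 at 24 h and 9 at 72 h were in the monocyte/Mφ-like class. At 24 h, 37 of these cells had a Syn1 UMI and 10 of them also had Timp1, beside 8.14 for the product of the shares. Reads of the overlapping genes are told apart only by strand, and whether the Syn1 counts were Timp1 reads was not tested.

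Cells with 2 of the genes were few, and their number was set beside the product of the shares of cells with each. At 24 h, 28 monocyte/Mφ-like cells had Mmp12 and 340 had Timp1, and 7 had both, beside 6.16 for the product of the shares. At 72 h, 28 cells had each and 5 had both, beside 1.36. In the Cxcl3/Slc7a11 subcluster at 72 h, 11 cells had Mmp12, 6 had Timp1 and 3 had both, beside 2.87. Mmp9 and Timp1 were both found in 28 monocyte/Mφ-like cells at 24 h, beside 22.9, and in 2 at 72 h, beside 2.87. Mmp9 and Mmp12 were both found in 4 of these cells at 24 h, beside 1.88, and in 5 at 72 h, beside 2.87, and 3 of the 5 were in the Cxcl3/Slc7a11 subcluster, beside 1.43. Of the neutrophil-like cells at 24 h, 242 had Mmp9, 7 had Timp1 and 2 had both, beside 4.11.

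**Figure D4:**
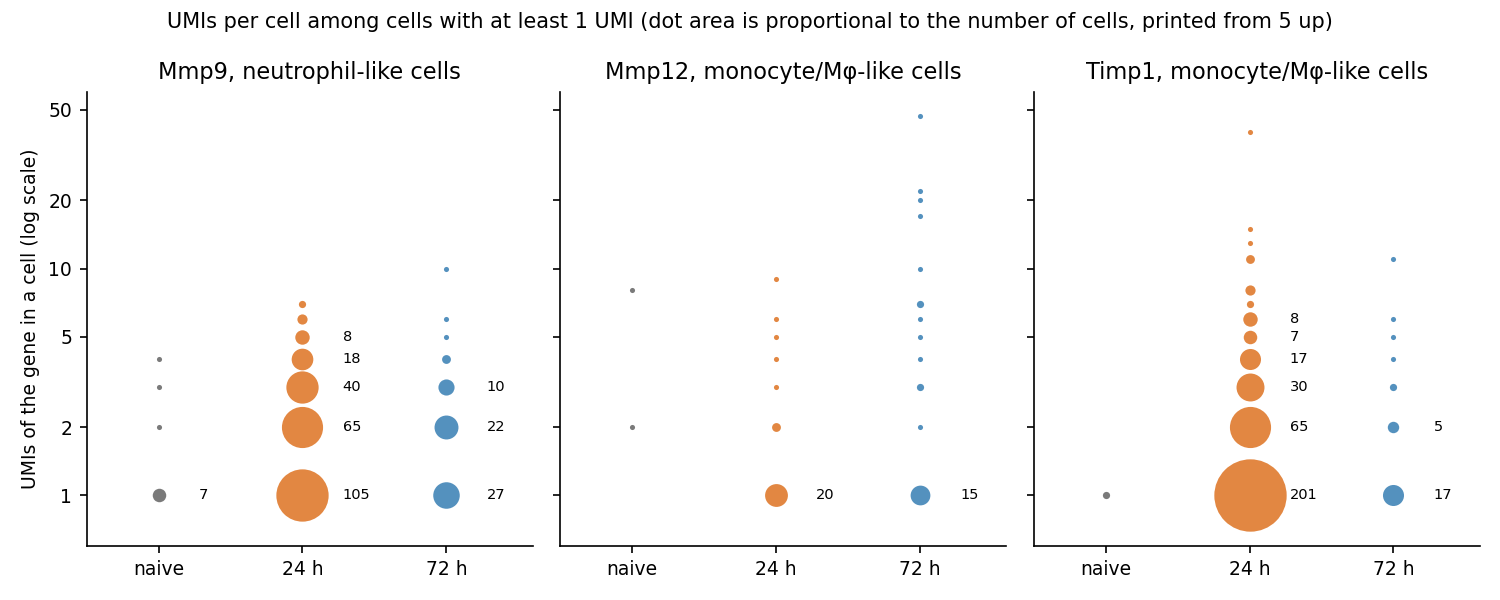
UMIs of the gene per cell on a log scale (y axis) among cells with at least 1 UMI, by library (x axis), for Mmp9 in neutrophil-like cells and for Mmp12 and Timp1 in monocyte/Mφ-like cells. The area of a dot is proportional to its number of cells, written beside dots of 5 or more. Most Mmp9 and Timp1 UMIs were in cells with 1 to 4 UMIs, while Mmp12 at 72 h reached 47, 22, 20 and 17 UMIs in single cells.

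The changes in the monocyte/Mφ-like class were set beside those of other genes. Of 2816 genes at 50 CPM or more in naive or 24 h cells, 325 (11.5%) were at least 2-fold higher at 24 h and 237 (8.42%) at least 2-fold lower, with a median ratio of 1.17. Timp1 was among the higher and Mmp9 among the lower genes. Of 2692 genes compared between 72 h and 24 h, 102 (3.79%) were at least 2-fold higher and 133 (4.94%) at least 2-fold lower, with a median ratio of 0.878. Mmp12 was among the higher and Timp1 among the lower genes. In neutrophil-like cells, 206 of 2509 genes (8.21%) were at least 2-fold higher at 72 h and 267 (10.6%) lower, with a median of 1.04, and Mmp9 at 0.734 was in neither set. Timp1 was compared through its 24 h level alone, Mmp12 through its 72 h level alone and Mmp9 through its naive level alone, so each could only fall on the side where it did, and Mmp9 at 72 h against 24 h and Mmp12 at 24 h against naive fell below 50 CPM on both sides. The 3 genes were chosen with these comparisons known, so nothing is read from their share.

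Of the 23 MMP genes listed, 14 were in the tables, 7 reached 10 CPM in a class and only Mmp8 and Mmp9 reached 100 CPM. Mmp14, the membrane-bound collagenase, was at 26.3, 19.3 and 25.1 CPM in naive, 24 h and 72 h monocyte/Mφ-like cells, and Mmp19 was at 16.2, 29.6 and 22.2 CPM. Of the MMPs that could be compared in this class, Mmp9 and Mmp13 were at least 2-fold lower at 24 h than in naive cells, and Mmp12 was higher at 72 h than at 24 h. Each entered the comparison only through the library where it was above 50 CPM, which fixed its side. Timp2, which also takes part in activating Mmp2 with Mmp14, ran opposite to Timp1. It was at 263, 98.9 and 315 CPM, 0.376 times the naive level at 24 h (0.312 to 0.455) and 3.18 times the 24 h level at 72 h (2.90 to 3.49). Its highest level was 739 CPM in the Timp2+ cells at 72 h, a name given only where Timp2 itself was at least 2-fold higher.

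**Figure D5:**
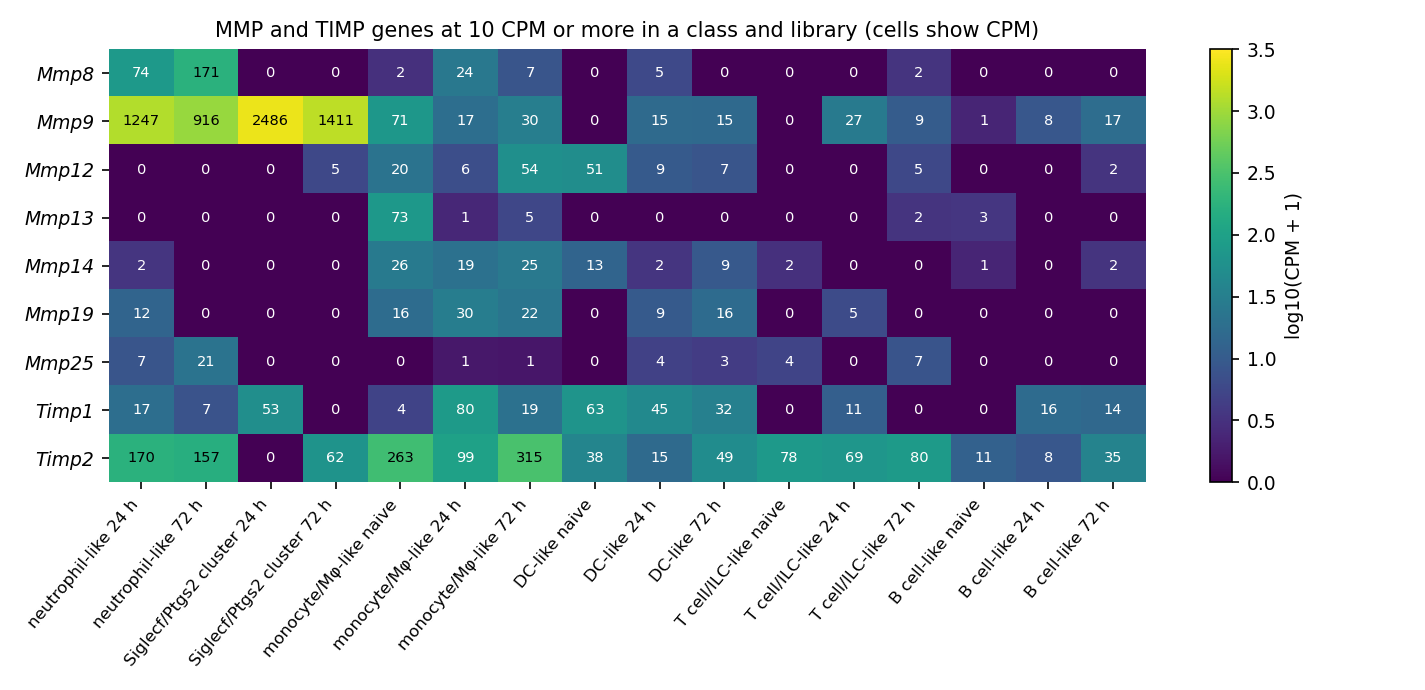
CPM of the MMP and TIMP genes that reached 10 CPM in a class with at least 20 cells (rows) in each class and library (columns), with the value printed in each cell and the colour showing log10(CPM + 1). Mmp9 was highest in the neutrophil-like cells and the Siglecf/Ptgs2 cluster, and in monocyte/Mφ-like cells Timp1 was at 4.05, 79.9 and 19.0 CPM where Timp2 was at 263, 98.9 and 315 CPM.

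Genes that act with these proteins were followed as lists in the monocyte/Mφ-like class. Of 9 partners on the cell surface or in granules, 1 (Lcn2) was at least 2-fold higher at 24 h than in naive cells and 1 (Cd74) lower, with a median ratio of 1.203, and at 72 h the same 2 genes lay on the opposite sides of 24 h, with a median of 0.932. Lcn2 was at 0, 64.1 and 7.09 CPM in this class, highest in Ly6c+ cells at 24 h (175 CPM). It was above 50 CPM at 24 h alone, which fixed its side in both comparisons. Cd74, the invariant chain, which can bind Timp1, was at 36152, 5161 and 15793 CPM. The integrin Itgb1 and the tetraspanin Cd63, which together bind Timp1, stayed within 2-fold, with Cd63 at 352, 415 and 387 CPM. Lrp1, which clears Mmp9 with Timp1, was at 115, 156 and 140 CPM.

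The list of cytokines known to induce Timp1 or MMPs also held Il1rn, which is an antagonist and not an inducer, and the receptor gene Il4ra. Of this list 5 genes could be compared, with a median ratio of 1.25 for 24 h over naive cells. In that comparison 2 genes, Osm and Il1rn, were at least 2-fold higher and 0 lower. Of the inducers compared, Osm, Il1b and Tgfb1, only Osm passed 2-fold. Osm, oncostatin M, an inducer of Timp1, was at 34.4, 114 and 87.9 CPM, 3.31 times the naive level at 24 h (2.05 to 5.70). Il1rn was at 14.2, 147 and 88.3 CPM, 10.4 times the naive level (5.02 to 25.9). Both were above 50 CPM at 24 h and not in naive cells, so they could not have been counted as lower. Between 72 h and 24 h none of the 5 passed 2-fold, with a median of 0.931. Of 13 transcription factors known to act on these promoters, Cebpb and Hif1a were higher at 24 h than in naive cells and Jun, Jund and Runx1 lower, with a median of 0.704. Cebpb was at 670, 1414 and 1273 CPM, and Jun at 988, 268 and 374 CPM. At 72 h against 24 h, 12 could be compared, Jund was higher and none lower, with a median of 1.33.

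Of 8 cathepsins and cystatins compared, Cstb, Ctsl and Ctsd were at least 2-fold higher at 24 h than in naive cells and Cst3 lower, with a median of 1.56. Ctsl, an elastin-degrading lysosomal protease, was at 206, 681 and 352 CPM. Cstb, an inhibitor of cathepsins, was at 383, 2019 and 585 CPM and was lower again at 72 h, 0.290 times the 24 h level (0.276 to 0.304), with a median of 0.693 over the list. Of 2 genes of the plasminogen system, which activates MMP precursors, Plgrkt was higher at 24 h, 2.46 times (1.66 to 3.81), and the median was 1.97, with none past 2-fold at 72 h and a median of 0.925. Of 3 granule proteases and inhibitors, Slpi was lower at 24 h (0.311, 0.271 to 0.358), with a median of 0.869, and none passed at 72 h, with a median of 1.39. None of 4 ADAM proteases passed 2-fold in either comparison, with medians of 1.39 and 0.991.

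The genes whose pattern was most like each of the 3 were found over the 16 groups of 1 class in 1 library with at least 20 cells, by Pearson's r of log2(CPM + 10) among 6082 genes. The groups share libraries, differ in depth and were given equal weight, so r is a description. Some high levels rest on few UMIs. Timp1 was at 52.9 CPM from 1 UMI in the Siglecf/Ptgs2 cluster at 24 h. In naive DC-like cells, Timp1 (63.1 CPM, 5 UMIs) and Mmp12 (50.5 CPM, 4 UMIs) each came from 1 cell. For Mmp9 they were Id1 (r = 0.977), Nfkbia (0.974), Csf1 (0.971), Ptgs2 (0.965) and Tnfaip2 (0.961). For Mmp12 they were Lyz1 (0.878), Cyp27a1 (0.872), Pltp (0.855), Lifr (0.828) and Tnfsf12 (0.813), and for Timp1 Prelid1 (0.848), Spg21 (0.835), Pitpna (0.809) and Plac8 (0.804).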

How the data were processed

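CD45+ muscularis cells were captured by droplet 3' sequencing, and the authors aligned reads to mm10 (GRCm38) and counted UMIs with Cell Ranger 3.0.2. The deposited tables hold raw UMI counts of 14148 genes in 4102 cells, the number the study clustered, each with at least 500 UMIs and at most 9.91% mitochondrial UMIs. Cells of the 3 libraries were clustered with Seurat 5.3.0 in R 4.3.3 (2000 variable genes without the listed genes, 30 principal components, 20 neighbours, resolution 0.8), giving 17 clusters. A cluster or subcluster was named from at least 3 markers of 1 class at 2-fold or more in at least 10% of its cells, unless a marker of another class stood ahead of its own among its 10 leading genes; a T cell/ILC cluster, or one named against other classes in a second round, was exempt from this, a subset's own name gene had to pass, and the rule was set after the clusters were seen. Monocyte/Mφ-like cells (2261) were clustered again (20 components). Doublets were kept; removing the highest doublet scores (scanpy 1.11.5) was an alternative. UMIs were summed per class and library and divided by the summed total to give CPM (Python 3.11.15, numpy 2.4.6, pandas 2.3.3). Intervals were exact (scipy 1.17.1): Poisson for levels, conditional Poisson for ratios, Clopper-Pearson for shares, all for counting error only. With 1 library per time point no test was run. Counts of 0 were given the limit of 3 counts. Genes named were the 3 members, listed genes of at least 100 CPM in a class and, for each member, the 5 most correlated genes, of which 1 for Timp1 is not reported here; listed genes below that, further markers and the genes of the Cxcl3/Slc7a11 subcluster were named after their values were seen. The members and lists were chosen with earlier results of these data known.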

Additional observations from a re-analysis of the deposited data

Results flagged for a closer look

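The Mmp9 ratio of 72 h to 24 h lay above 1 in one class and below 1 in others. The 72 h level over the 24 h level was 1.72 in monocyte/Mφ-like cells (1.31 to 2.23), 0.734 in neutrophil-like cells (0.602 to 0.890) and 0.567 in the Siglecf/Ptgs2 cluster (0.416 to 0.789). The difference between the classes was not tested, since each time point is 1 library. With all cells counted, the monocyte/Mφ-like level could not be told from that of B cell-like cells at either time (2.21, 0.391 to 87.9, at 24 h and 1.81, 0.844 to 4.62, at 72 h). Without the top cell of each class, these levels at 72 h were 28.4 and 9.70 CPM. With the Siglecf/Ptgs2 cluster counted as neutrophil-like, the neutrophil-like ratio was 0.927 (0.816 to 1.054).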

How the results depend on the processing

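No paired analysis was possible because each time point is 1 library. The 18 results were recomputed under 13 alternatives, one of them, leaving out the cell with the most UMIs of the gene in each group, chosen after seeing the data. Of the ratios that compare classes or times, the Mmp9 level of neutrophil-like over monocyte/Mφ-like cells at 24 h (71.5) was 107 with each cell thinned to 500 UMIs and 58.8 with ribosomal protein and mitochondrial genes left out of the total. The Mmp12 ratio of 24 h to naive monocyte/Mφ-like cells turned from 0.291 to 1.204 without the top cell in each library, and thinning gave it no value. The Mmp12 ratio of 72 h to 24 h ranged from 6.85 to 9.78, the Timp1 ratio of 24 h to naive from 5.62 to 36.8 and of 72 h to 24 h from 0.205 to 0.303, and these 3 kept their direction. The Mmp9 ratio of 24 h to naive monocyte/Mφ-like cells ranged from 0.0566 to 0.304. The Mmp12 level of the Cxcl3/Slc7a11 subcluster at 72 h ranged from 1026 to 2346 CPM, and the naive monocyte/Mφ-like Mmp9 level reached 229 CPM with thinning. The share of Mmp9 UMIs ranged from 54.9% to 85.8% in neutrophil-like cells at 24 h and from 52.1% to 68.75% in the Siglecf/Ptgs2 cluster at 72 h. With the Siglecf/Ptgs2 cluster counted as neutrophil-like, the Mmp9 ratio of 72 h to 24 h was 0.927 (0.816 to 1.054). In each of the 8 other clusterings 1 cluster, led by Siglecf, stayed unnamed. The causes were not tested. With 1 pooled library per time point, the intervals hold no spread between mice, and values from fewer than 4 UMIs or from 1 cell, such as the naive DC-like ones, are descriptions of those cells.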
